A study of Mus musculus with 9 samples.

Results

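The 8 genes described here, Mpo, Elane, Prtn3, Ctsg, Ms4a3, Plac8, Ly86 and Ly6c2, are expressed in granulocyte-monocyte progenitors and promyelocytes, and the enzymes among them fill the primary granule. They were chosen by name and are 8 of the 24060 named rows of the count table. All 8 passed the filter on low counts and are among the 13355 genes that were tested. The data are RNA-seq read counts of LSKs, the Lin−Sca1+Kit+ bone marrow fraction that holds the stem cells and multipotent progenitors of mice, from 3 control, 2 NHD13 and 4 NHD13/MSI2 libraries. Every library is labelled with the strain C57BL/6 and an age of 4 months.

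The control libraries came from recipients of C57BL/6 bone marrow. The NHD13 libraries came from recipients of marrow with the NUP98-HOXD13 fusion gene, a model of myelodysplastic syndrome in which the Vav promoter drives the transgene in all haematopoietic cells. The NHD13/MSI2 libraries came from recipients of marrow that carried the same transgene together with KH2-Col1A1-tet-on-MSI2/ROSA26-rTTA, which expresses the RNA-binding protein MSI2 under doxycycline. In each group the marrow was given with CD45.1+ helper cells to lethally irradiated congenic recipients, and by the study's text RNA was taken after 3 months of doxycycline. The labels do not say whether the libraries of a group are separate mice, so the p-values measure the spread between libraries, which may be technical.

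Neutrophils make their granules in sequence, and the azurophil or primary granules are filled at the promyelocyte stage. Myeloperoxidase, encoded by Mpo, uses hydrogen peroxide to make hypochlorous acid. Elane, Prtn3 and Ctsg encode neutrophil elastase, proteinase 3 and cathepsin G, serine proteases that are stored active in the same granules and that take part in killing microbes and shaping inflammation. Transcription of these genes starts at the granulocyte-monocyte progenitor, under factors such as PU.1, C/EBPα, MYB and RUNX1, and ends before the secondary granules are made. Ms4a3 encodes a membrane protein that marks these progenitors and their progeny. Plac8 and Ly6c2 are expressed in neutrophil and monocyte precursors, and Ly86 encodes MD-1, the partner of the Toll-like receptor relative CD180 on B cells and myeloid cells.

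The windows of 250 bases before to 50 bases after the RefSeq start sites of 5 of the genes are shown because the results turn on them: Mpo and the proteases Elane, Prtn3 and Ctsg fill the same granule and parted in these libraries, and Ly86 had the widest difference from control. All 8 genes matched the RefSeq promoter table (GRCm38.p6). Capitals mark matches, on either strand (a match on the other strand is printed as its reverse complement), to GAGGAAGT, a PU.1-type motif, to TTGCNNAA of C/EBP, to TGTGGT of RUNX and to GAAANNGAA of IRF. The motifs were picked after the sequences had been seen. The windows are chr11:87793534-87793833 (plus strand) for Mpo, chr10:79886062-79886361 (plus) for Elane, chr10:79879417-79879716 (plus) for Prtn3, chr14:56102525-56102824 (minus) for Ctsg and chr13:37345095-37345394 (plus) for Ly86.
Mpo: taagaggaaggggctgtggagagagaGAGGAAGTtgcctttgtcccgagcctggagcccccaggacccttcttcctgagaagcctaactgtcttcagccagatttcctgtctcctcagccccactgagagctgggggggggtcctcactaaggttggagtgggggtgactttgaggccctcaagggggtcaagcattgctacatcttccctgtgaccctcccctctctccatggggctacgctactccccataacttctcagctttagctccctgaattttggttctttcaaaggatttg
Elane: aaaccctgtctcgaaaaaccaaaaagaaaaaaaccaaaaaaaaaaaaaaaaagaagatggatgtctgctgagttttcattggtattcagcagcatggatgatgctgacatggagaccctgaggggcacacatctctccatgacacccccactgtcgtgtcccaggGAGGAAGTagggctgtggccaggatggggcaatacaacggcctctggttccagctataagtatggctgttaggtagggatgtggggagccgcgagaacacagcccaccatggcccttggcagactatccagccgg
Prtn3: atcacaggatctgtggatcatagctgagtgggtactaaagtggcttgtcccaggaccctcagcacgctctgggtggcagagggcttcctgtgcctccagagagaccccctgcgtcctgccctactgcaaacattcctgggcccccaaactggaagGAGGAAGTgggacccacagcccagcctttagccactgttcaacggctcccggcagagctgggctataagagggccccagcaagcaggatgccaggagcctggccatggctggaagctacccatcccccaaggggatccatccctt
Ctsg: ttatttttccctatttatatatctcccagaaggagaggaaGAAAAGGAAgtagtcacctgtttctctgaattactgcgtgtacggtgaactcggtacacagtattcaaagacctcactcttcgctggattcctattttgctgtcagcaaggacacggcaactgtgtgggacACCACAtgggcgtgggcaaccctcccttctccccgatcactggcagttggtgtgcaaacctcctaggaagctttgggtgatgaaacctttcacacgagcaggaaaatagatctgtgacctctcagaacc
Ly86: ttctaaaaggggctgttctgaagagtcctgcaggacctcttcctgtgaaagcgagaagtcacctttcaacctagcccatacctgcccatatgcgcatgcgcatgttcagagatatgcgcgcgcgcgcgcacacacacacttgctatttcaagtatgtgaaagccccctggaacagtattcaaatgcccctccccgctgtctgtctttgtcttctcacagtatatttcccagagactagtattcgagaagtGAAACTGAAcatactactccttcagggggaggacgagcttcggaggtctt

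The PU.1-type motif stood once in the window of Mpo, beginning at base -224 from the start site, at base -85 in Elane and at base -95 in Prtn3. The window of Ly6c2, not shown, held 2 matches. Among all 27025 promoter windows of 300 bases, 3.28% held this motif. Ctsg and Ly86 held no match to it. Ly86 held the IRF motif at its start site, where it covers a match to AACNG of MYB, and Ctsg held it at base -210, against 8.57% of all windows. The RUNX motif stood in the windows of Ctsg, Plac8 and Ly6c2 and in 16.9% of all windows, the C/EBP motif in that of Ms4a3 and in 10.8%, and AACNG, which is not in capitals, in 7 of the 8 windows and in 80.4% of all windows. These matches describe letters, not binding.

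Prtn3 and Elane are neighbours on the plus strand of chromosome 10, at chr10:79874476-79883174 and chr10:79886247-79888215 (GRCm38, GENCODE M21). Among the windows shown, the RefSeq starts of Mpo, Elane, Prtn3 and Ly86 lie inside their GENCODE spans, so the motif positions depend on the start site used. Mpo lies on chromosome 11 (plus strand, 87793581 to 87804413), Ctsg on chromosome 14 (minus strand, 56099881 to 56102574), Ms4a3 on chromosome 19 (minus strand, 11629496 to 11640851), Plac8 on chromosome 5 (minus strand, 100553725 to 100572245), Ly86 on chromosome 13 (plus strand, 37345208 to 37419036) and Ly6c2 on chromosome 15 (minus strand, 75108158 to 75111970). Mpo is overlapped on the other strand by the antisense gene Gm11505, which lies inside its span. Prtn3 is overlapped on the other strand by Plppr3, which ends at base 79874634, so only at the start of its GENCODE span. The strand setting of the counting is not given in the sources used here, so reads of partners cannot be told apart where they overlap. Ly6c2 has a near-identical neighbour in Ly6c1, so its counts are uncertain as to which copy they came from.

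The libraries held 19242153 to 23013493 counts on named genes. Replicate 4 labelled NHD13/MSI2 stood apart, with Actb at 51587 TMM-normalized CPM (counts scaled to library size) against at most 11646 in the other 3 libraries of its group, and its counts differed from theirs with a chi-square per gene of 398 to 426, against 18.8 to 32.4 among those 3. Msi2, the gene to be induced, was at 88.0, 77.1, 82.8 and 241 CPM in the NHD13/MSI2-labelled libraries, at 139 and 111 CPM in NHD13 and at 223 to 316 CPM in the controls. The Msi2 counts go against the label in replicates 1 to 3, and every direction given for this group rests on its label. Whether reads of the transgene were counted on the mouse gene was not tested. Xist was high in control replicates 1 and 3 (21712 and 21664 counts) and at 49 counts or fewer in the other 7 libraries, and the library names of the controls differ too, with the word bulk in replicate 1 and MPP_HSC in replicates 2 and 3. The names of Mpo, Ms4a3, Plac8 and Prtn3 are among the 11942 that were moved down by 2 rows in the table, while Ctsg, Elane, Ly6c2 and Ly86 stand before the shift.

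Myeloperoxidase had the most reads of the 8 genes in every library, and its level lay higher at each step of the design. Mpo was at 1861, 1589 and 1195 CPM in the control libraries, at 3806 and 2958 CPM in NHD13 and at 7843, 13874, 12790 and 8646 CPM in replicates 1 to 4 labelled NHD13/MSI2. The 3 groups did not overlap. In libraries from a mixed sort, more cells of a type and more RNA per cell cannot be told apart.

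Over control, Mpo was 6.97-fold higher in the NHD13/MSI2-labelled libraries (log2 fold change, or log2FC, 2.80 with a standard error, SE, of 0.287). Its p from the quasi-likelihood test of edgeR, adjusted over all genes tested by Benjamini and Hochberg's method, was 0.000254. An adjusted p under 0.01 was taken as a call, and all adjusted p-values that follow are of this kind. Over NHD13 it was 3.19-fold higher, with all 4 libraries above both NHD13 libraries, and missed that threshold (log2FC 1.67, SE 0.319, adjusted p = 0.0127, same test). Without replicate 4 the adjusted p of this difference was 0.00536 by edgeR's test at a log2FC of 1.79. NHD13 over control gave a log2FC of 1.13 (SE 0.305, adjusted p = 0.101, edgeR's test). With only the libraries that have Y-linked counts, which leaves 1 control that is assumed to vary like the other groups, Mpo over control had a log2FC of 2.80 in the labelled libraries and the call was lost (adjusted p = 0.0321, edgeR's test). Mpo alone made up 54.4% to 85.0% of the reads of the 8 genes in a library.

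Neutrophil elastase passed the threshold in none of the comparisons. Elane was at 151, 188 and 90.1 CPM in control, at 111 and 47.2 CPM in NHD13 and at 93.2, 153, 139 and 50 CPM in replicates 1 to 4 labelled NHD13/MSI2. The groups overlapped throughout, and the lowest values were those of NHD13 replicate 2 and of replicate 4. The log2FC was -0.39 over control (SE 0.424, adjusted p = 0.572), 0.46 over NHD13 (SE 0.493, adjusted p = 0.654) and -0.86 for NHD13 over control (SE 0.522, adjusted p = 0.585), all by edgeR.

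Proteinase 3 overlapped between control and NHD13. Prtn3 was at 191, 252 and 225 CPM in control and at 200.3 and 236 CPM in NHD13. It was at 592, 758, 594 and 193 CPM in replicates 1 to 4 labelled NHD13/MSI2, so that 3 of the 4 were above every other library and replicate 4 was among the lowest. With all 4 the log2FC was 1.29 over NHD13 (SE 0.449, adjusted p = 0.121) and 1.26 over control (SE 0.386, adjusted p = 0.0459), and neither passed the threshold in edgeR's test. Without replicate 4 both passed, at 1.59 (adjusted p = 0.00117) and 1.55 (adjusted p = 0.000179, same test). NHD13 and control differed by a log2FC of -0.03 (SE 0.446, adjusted p = 0.997, edgeR's test).

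Cathepsin G, like elastase, did not pass in any comparison. Ctsg was at 42.5, 63.9 and 23.7 CPM in control, at 74.4 and 52.6 CPM in NHD13 and at 52.9, 100.2, 87.7 and 36.1 CPM in replicates 1 to 4 labelled NHD13/MSI2. All 3 groups overlapped. Its log2FC values were 0.68 over control (adjusted p = 0.291), 0.12 over NHD13 (adjusted p = 0.916) and 0.55 for NHD13 over control (adjusted p = 0.763, edgeR's test).

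Ms4a3, the progenitor marker, passed in no comparison. It was at 23.9, 27.9 and 15.6 CPM in control, at 24.6 and 12.4 CPM in NHD13 and at 19.0, 41.4, 30.9 and 7.46 CPM in replicates 1 to 4 labelled NHD13/MSI2. The labelled group held both the lowest and the highest of the 9 libraries, and the groups overlapped. No comparison gave an adjusted p below 0.744 in edgeR's test, with log2FC values of 0.42 over NHD13, 0.14 over control and -0.28 for NHD13 over control.

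Plac8 and Ly86 were higher in both transgenic groups than in control. Plac8, which encodes a small cysteine-rich protein, was at 387, 509 and 419.5 CPM in control, at 824 and 1835 CPM in NHD13 and at 2369, 2024, 2011 and 1008 CPM in replicates 1 to 4 labelled NHD13/MSI2. Every transgenic library was above every control, while the transgenic groups overlapped. Plac8 was 4.23-fold higher over control in the NHD13/MSI2-labelled libraries (log2FC 2.08, SE 0.357, adjusted p = 0.00329, edgeR's test), a call that was lost when any 1 of the controls was left out (adjusted p of 0.0145 to 0.0210 by the same test) and with only the libraries that have Y-linked counts (adjusted p = 0.175). In NHD13 over control its log2FC was 1.60 (SE 0.394, adjusted p = 0.0723) and over NHD13 0.48 (SE 0.386, adjusted p = 0.534). Without NHD13 replicate 2 these were 0.90 and 1.21, and without NHD13 replicate 1 they were 2.07 and 0.04.

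Ly86 showed the widest gap. It was at 5.6, 3.61 and 3.52 CPM in control, at 110.2 and 285 CPM in NHD13 and at 343, 324, 322 and 226 CPM in replicates 1 to 4 labelled NHD13/MSI2. The control counts were 76 to 137 a library and those of the transgenic groups 2397 to 7119, with no overlap. The fold change over control was 71.4 in the NHD13/MSI2-labelled libraries (log2FC 6.16, SE 0.416, adjusted p = 2.83e-05) and 46.5 in NHD13 (log2FC 5.54, SE 0.421, adjusted p = 0.000242), both by edgeR. Without NHD13 replicate 2 the log2FC in NHD13 was 4.68 and without NHD13 replicate 1 it was 6.07, both called. With only the libraries that have Y-linked counts the call of Ly86 held in the NHD13/MSI2-labelled libraries (adjusted p = 0.00821) and was lost in NHD13 (log2FC 5.78, adjusted p = 0.0369, edgeR). The transgenic groups overlapped and differed by a log2FC of 0.62 (SE 0.363, adjusted p = 0.371, same test), which was 0.12 and 1.5 without NHD13 replicate 1 and 2. Cd180, which encodes the receptor that MD-1 accompanies, was at 6.63 to 15.9 CPM over all 9 libraries and was called in none of the comparisons (log2FC 0.17 over control and -0.32 over NHD13 in the NHD13/MSI2-labelled libraries).

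Ly6c2, an anchored surface protein of monocytes and neutrophil precursors, varied widely within its groups. It was at 18.8, 26.9 and 10.7 CPM in control, at 50.2 and 12.8 CPM in NHD13 and at 65.8, 85.3, 76.3 and 6.68 CPM in replicates 1 to 4 labelled NHD13/MSI2. Replicates 1 to 3 were above every other library and replicate 4 was below all. The log2FC over control was 1.64 (SE 0.768, adjusted p = 0.173) and without replicate 4 it was 2.02 (adjusted p = 0.0137, edgeR's test). The counts of Ly6c1, its near-identical copy, were 4.90 to 35.9 times lower than those of Ly6c2 in the same library. The Gr1 antibody in the study's lineage panel binds the Ly6G antigen and, more weakly, Ly6C.

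**Figure D1:**
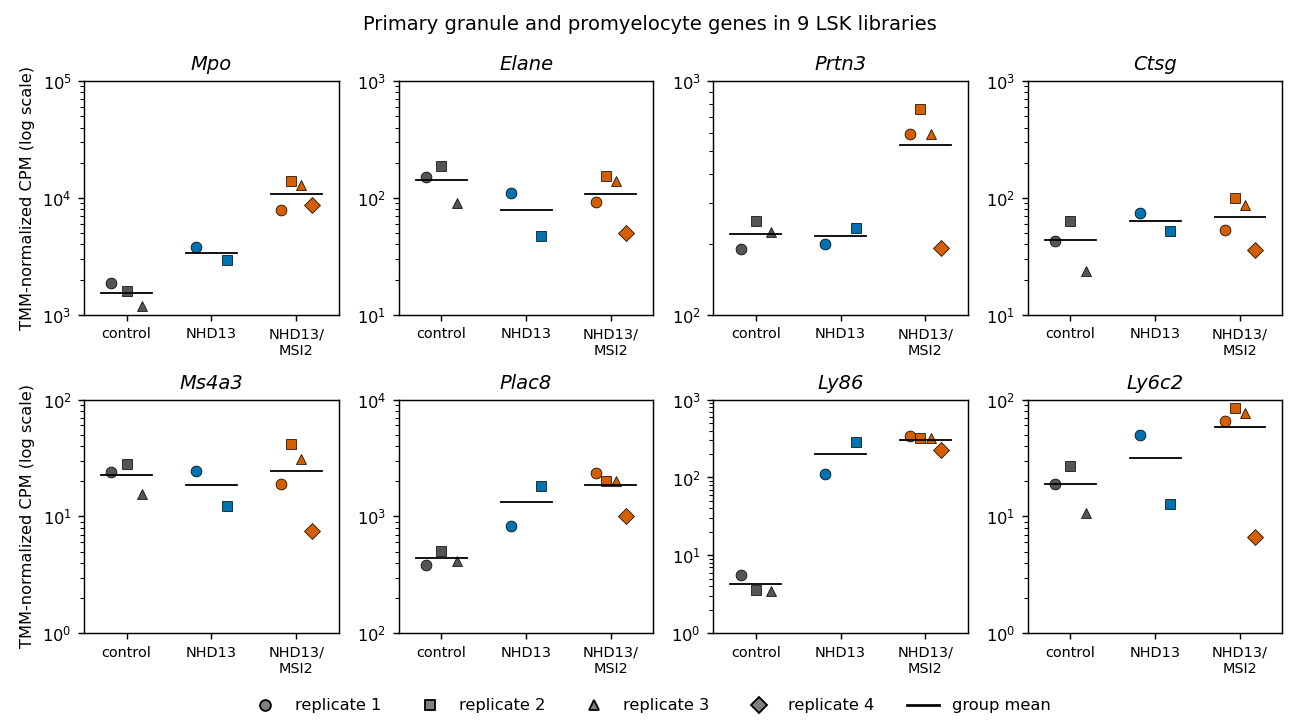
TMM-normalized CPM of the 8 genes (log axis, a separate range for each panel) in the control, NHD13 and labelled NHD13/MSI2 libraries, with 1 symbol per replicate and a line at the group mean. The groups are apart for Mpo, and for Ly86 and Plac8 only the controls are apart, while replicate 4 (diamond) lies among the lowest values for Prtn3, Elane, Ms4a3 and Ly6c2.

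Counted against the background of all genes, the 8 genes were called as follows. In the NHD13/MSI2-labelled libraries over control, 3 of the 8 (Mpo, Plac8 and Ly86) rose, where 11.0% of all genes tested were called, 4.49% higher and 6.55% lower (599 and 875 genes, which became 401 and 1084 when libraries were scaled by their totals alone). In NHD13 over control, 1 of the 8 (Ly86) rose, where 1.03% of all genes were called, 0.824% higher and 0.210% lower. In the NHD13/MSI2-labelled libraries over NHD13, 0 of the 8 were called by edgeR, where 3.17% of all genes were, 0.584% higher and 2.58% lower (78 and 345 genes, which became 44 and 415 with scaling by library totals). At an unadjusted p under 0.05 edgeR listed 2904 genes in that comparison, 2 of the 8, Mpo and Prtn3, among them. DESeq2 called 1 of the 8, Mpo.

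The median log2FC of the 8 genes was 1.5 in the NHD13/MSI2-labelled libraries over control, 0.65 in NHD13 over control and 0.55 between the transgenic groups, beside -0.011, 0.017 and -0.028 over all genes tested. The 3 comparisons share libraries and are not independent. Over NHD13 the estimates of all 8 genes were above 0 with TMM scaling, while that of Ctsg was -0.04 when libraries were scaled by their totals alone, a scaling that moved the median of all genes by -0.19. Mpo was the only member with all libraries of the labelled NHD13/MSI2 group above those of NHD13, where 13% of all genes had that order. Over control, all libraries were higher for Mpo, Plac8 and Ly86, in each of the transgenic groups, where 15.3% of all genes had that order in the NHD13/MSI2-labelled libraries and 18.9% in NHD13.

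**Figure D2:**
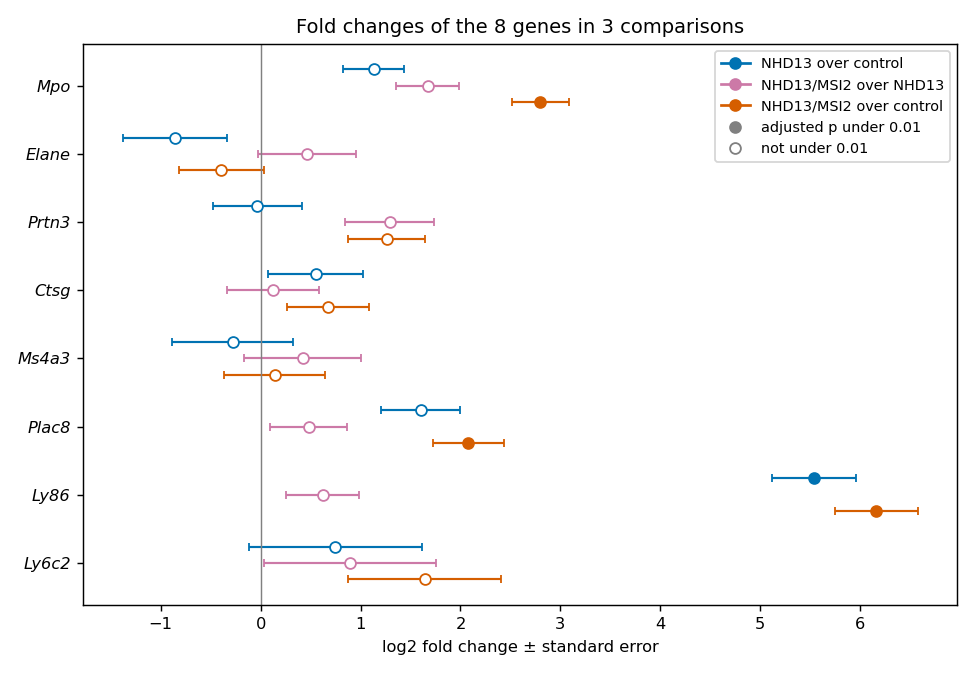
Log2FC (x axis) with its SE for each of the 8 genes in the 3 comparisons, filled where the adjusted p of edgeR is under 0.01. Filled points are Mpo, Plac8 and Ly86 over control in the NHD13/MSI2-labelled libraries and Ly86 over control in NHD13, and the points of Elane and Ms4a3 lie within 0.86 of 0.

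The balance between the granule products was compared within each library, where scaling between libraries has no part. For each count of Elane there were 12.3, 8.43 and 13.3 counts of Mpo in the control libraries, 34.3 and 62.7 in NHD13 and 84.1, 90.5, 91.9 and 173 in replicates 1 to 4 labelled NHD13/MSI2. The ranges of the groups did not overlap. For Ctsg the ratio to Elane was 0.264 to 0.339 in control, 0.670 and 1.12 in NHD13 and 0.567 to 0.722 in the NHD13/MSI2-labelled libraries, so that every transgenic library was above every control. Prtn3 was at 1.27, 1.34 and 2.5 counts per Elane count in control, at 1.80 and 5 in NHD13 and at 6.35, 4.94, 4.27 and 3.86 in replicates 1 to 4 labelled NHD13/MSI2. Here replicate 4, which had little of either transcript, was near the others. Ms4a3 stayed between 0.148 and 0.270 counts per Elane count in all 9 libraries, the narrowest range among the 7 ratios. Ratios of this kind show unequal change and not which transcript moved, and they are given as a description with no test.

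**Figure D3:**
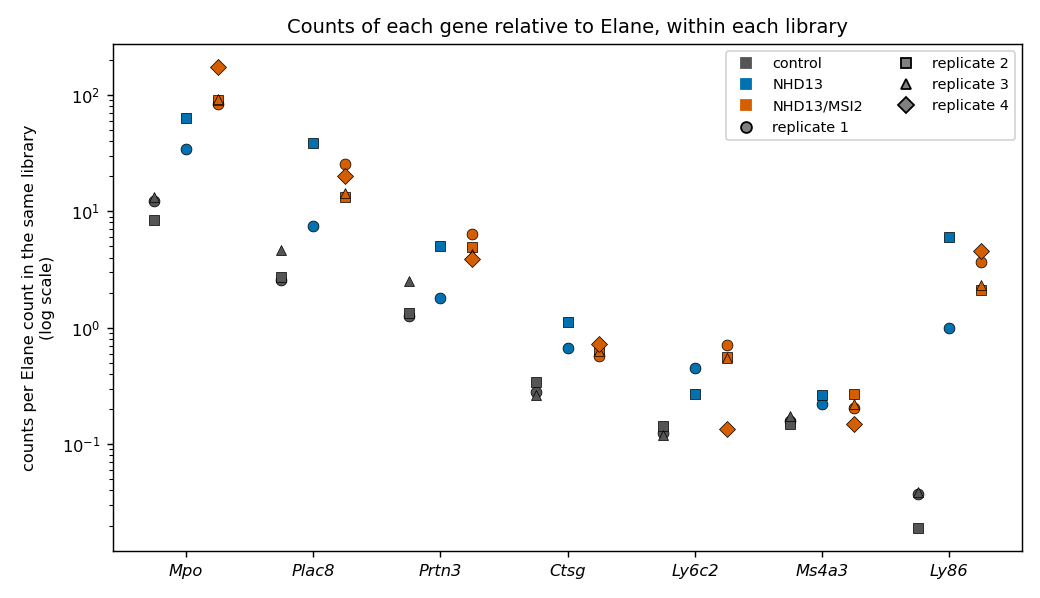
Counts of 7 genes per count of Elane in the same library (log axis), coloured by group and shaped by replicate. Mpo lies at 8.43 to 13.3 in control and at 84.1 to 173 in the NHD13/MSI2-labelled libraries, and Ms4a3 stays between 0.148 and 0.270 in all libraries.

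As a share of all reads on named genes, the 8 genes together took 0.287%, 0.283% and 0.216% in control, 0.557% and 0.572% in NHD13 and 1.10%, 1.69%, 1.56% and 0.799% in replicates 1 to 4 labelled NHD13/MSI2. The 3 groups did not overlap. Mpo made up 54.4% to 85.0% of these reads in a library, so this order is largely that of Mpo and is not shared by all 8 genes. The Wilson 95% intervals were narrow, 1.68% to 1.70% for the highest library and 0.214% to 0.217% for the lowest, and cover counting error only.

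Per kilobase of exon, Mpo was first in every group, at 452 ± 97.8 CPM per kilobase (SD, n = 3) in control, 988 ± 175 (SD, n = 2) in NHD13 and 3151 ± 873 (SD, n = 4) in NHD13/MSI2-labelled libraries. Plac8 was next, at 275 ± 39.5, 835 ± 449 and 1164 ± 369 CPM per kilobase. In NHD13 these levels of Mpo and Plac8 did not differ beyond their spread. Elane at 145 ± 50.4 and Prtn3 at 129 ± 17.5 CPM per kilobase followed in control, within their spread of each other. In the NHD13/MSI2-labelled libraries Prtn3 was at 308 ± 139 CPM per kilobase and Elane at 111 ± 47.7, and Ly86, the lowest in control at 1.17 ± 0.324, stood at 83.6 ± 14.6, within its spread of Elane and of Ctsg (67.0 ± 28.9). Ctsg (42.0 ± 19.5 in control), Ms4a3 (11.9 ± 3.34) and Ly6c2 (6.86 ± 2.97) lay below. Divided by coding length instead, Plac8 had the highest mean and Mpo the next in all 3 groups, within their spread in the NHD13/MSI2-labelled libraries (5515 ± 1747 and 5008 ± 1387 CPM per coding kilobase, SD, n = 4), since 336 of the 1592 exon bases of Plac8 are coding.

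Primary granule proteins need other gene products before they are active or stored. Of 16 genes for this handling, 6 rose and 1 fell over control in the NHD13/MSI2-labelled libraries, 0 were called in NHD13 over control and 0 over NHD13 in edgeR's test, where 3 higher and 1 lower, and 6 higher and 2 lower, had an unadjusted p under 0.05. Of all 13355 genes tested, 1802 in NHD13 over control and 2904 over NHD13 had such a p in either direction. DESeq2 called 3 higher and 1 lower in NHD13 over control and 4 higher over NHD13. Without replicate 4, edgeR called 3 of these genes higher over NHD13. Over control, 1 rose without control replicate 1 or 3, 3 or 4 without any other library but replicate 4, and 7 without replicate 4. The median log2FC of the list over control was 0.76 in the labelled group, beside -0.011 over all genes tested. In the reported fit of that comparison, 4.49% of all genes tested were called higher and 6.55% lower. Alas1, the first enzyme of haem synthesis, was at 101 ± 9.75 CPM (SD, n = 3) in control and averaged 392 ± 83.7 CPM (SD, n = 4) in the 4 NHD13/MSI2-labelled libraries (log2FC 1.95, adjusted p = 0.000287, edgeR's test). The oxidase subunit genes Ncf1 (log2FC 1.70) and Cyba (1.02), and Lyst (1.61), which acts in granule and lysosome formation, also rose. So did Pdia3 (0.70) and Hspa5 (0.82), chaperones of the endoplasmic reticulum. Serpinb1a, an inhibitor of elastase, proteinase 3 and cathepsin G, fell (log2FC -1.13, adjusted p = 0.00159), from 523 to 704 CPM in control to 229 to 317 CPM.

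Ctsc and Srgn act on the proteases themselves and did not pass. Ctsc, the peptidase that removes their propeptide, was at 131 ± 12.7 CPM (SD, n = 3) in control, 104 and 145 CPM in NHD13 and 179 to 219.6 CPM in the NHD13/MSI2-labelled libraries (log2FC 0.70 over NHD13, adjusted p = 0.0438, edgeR's test). Srgn, the proteoglycan core that holds them in the granule, was at 624, 640.1, 592 and 312 CPM in replicates 1 to 4 labelled NHD13/MSI2 and at 737 to 879 CPM in the other groups (log2FC -0.46 over NHD13, adjusted p = 0.367, same test).

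Of 24 other genes of promyelocytes and granulocyte-monocyte progenitors, 5 rose and 2 fell over control in the NHD13/MSI2-labelled libraries, 3 rose and 1 fell in NHD13 over control, and 2 rose and 1 fell between the transgenic groups. Of all genes tested, 4.49% were called higher and 6.55% lower in the first of these comparisons. The shares were 0.824% and 0.210% in NHD13 over control, and 0.584% and 2.58% between the transgenic groups. Leaving out 1 library at a time gave 4 to 6 rises over control in the labelled group, 0 (without control replicate 1, 2 or 3 or NHD13/MSI2 replicate 2) to 5 (without NHD13/MSI2 replicate 4) in NHD13 over control, and 0 (without control replicate 2) to 3 (without NHD13/MSI2 replicate 4) between the transgenic groups. The median over control in the labelled group was 0.74 on the log2 scale. Prss57, a further granule serine protease, was at 29.9 to 37.0 CPM in control, at 85.1 and 169 CPM in NHD13 and at 139 to 192 CPM in the NHD13/MSI2-labelled libraries. Its log2FC over control was 2.41 in the last group (adjusted p = 0.000261) and 1.98 in NHD13 (adjusted p = 0.0054, edgeR's test). Igsf6 (log2FC 4.04 over control) and Tyrobp (3.80), the latter a signalling adaptor of myeloid receptors, and the lysosomal protease gene Ctsz (2.52) rose as well. Nkg7 and Cst7, genes shared with cytotoxic granules, went the other way. Nkg7 fell by 3.22 on the log2 scale over control in the NHD13/MSI2-labelled libraries and fell by 2.81 in NHD13, and Cst7 (cystatin F) fell by 2.95 over NHD13 (adjusted p = 0.00368) and fell by 1.93 over control. Csf3r, the receptor of granulocyte colony-stimulating factor, was at 97.2 and 109.9 CPM in NHD13 and at 236 to 349 CPM in the NHD13/MSI2-labelled libraries (log2FC 1.43, adjusted p = 0.00336, edgeR's test), with control at 185 to 198 CPM.

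Among 21 sequence relatives and partners of the 8 genes, 17 were tested, and 4 rose and 1 fell over control in the NHD13/MSI2-labelled libraries, with a median log2FC of 0.17. Apart from Prss57 these were Ms4a4c (log2FC 3.36), Ms4a6c (2.10) and Ly6e (1.45), and Tlr4, the receptor of lipopolysaccharide, fell by 2.23. In that comparison 4.49% of all genes tested were called higher and 6.55% lower. The related peroxidase genes Epx and Lpo were near 0. Epx of eosinophils had at most 1.31 CPM in any library and Lpo at most 0.973 CPM, so Mpo was the only one of these genes with a level here.

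Of 9 factors known to act on these genes, 3 rose over control in the NHD13/MSI2-labelled libraries and 0 were called by edgeR in the other comparisons, where 4 in NHD13 over control and 2 over NHD13 were higher, and 1 over NHD13 lower, at an unadjusted p under 0.05. Among all 13355 genes tested, 1802 and 2904 had such a p in these comparisons, in either direction. DESeq2 called 2 higher and 1 higher in the same comparisons, and without replicate 4 edgeR did the same. The median log2FC over control was 0.24 in the labelled group, where 4.49% of all genes tested were called higher. Cebpa rose from 3.59 ± 0.937 CPM (SD, n = 3) in control to 16.2 ± 4.04 CPM (SD, n = 4) (log2FC 2.17, adjusted p = 0.00136), Runx1 by a log2FC of 1.17 (adjusted p = 0.00169) and Irf8, which directs progenitors to the monocyte and dendritic lines, by 3.63 (adjusted p = 0.000268, edgeR's test). Spi1, which encodes PU.1, was at 17.9 to 22.1 CPM in control and at 78.3, 78.7, 62.7 and 13.1 CPM in replicates 1 to 4 labelled NHD13/MSI2 (log2FC 1.52, adjusted p = 0.0622, same test). Replicate 4 was below every other library in Spi1. Myb was at 401 to 684 CPM in all libraries (log2FC 0.24 over control, adjusted p = 0.320). Cebpe, needed for the secondary granule stage, was at 0.779 to 5.23 CPM, and Gfi1 at 2.62 to 8.59 CPM, with adjusted p of at least 0.303 for each in the 3 comparisons by edgeR's test.

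Markers of other cell types were set beside these values. Late neutrophil granule genes summed to 916 to 2495 CPM in control, to 147 and 548 CPM in NHD13 and to 235 to 685 CPM in the NHD13/MSI2-labelled libraries. Their sum was thus lower in both transgenic groups, with a median log2FC over control of -1.7 in the labelled group. Of the 10 genes there, edgeR called 0 lower, with 6 lower at an unadjusted p under 0.05 and 2 called lower by DESeq2. In that comparison 4380 of all 13355 genes tested had such an unadjusted p in either direction. Cxcr2, a chemokine receptor, rose over control (log2FC 3.69, adjusted p = 0.000466, edgeR's test). Ngp, a secondary granule gene, was at 425 to 1180.4 CPM in control and at 137 to 285 CPM in the NHD13/MSI2-labelled libraries (log2FC -1.80, adjusted p = 0.0288). Of 8 monocyte and macrophage genes 7 were in the table, and they summed to 60.6 to 108 CPM in control, 2569 and 3273 CPM in NHD13 and 6187 to 8506 CPM in the NHD13/MSI2-labelled libraries.

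In the transgenic libraries most of the monocyte sum was F13a1, at 20.9 to 40.0 CPM in control, 2239 and 2974 CPM in NHD13 and 5608 to 7772 CPM in the NHD13/MSI2-labelled libraries. F13a1, Csf1r and Cd68 rose over control in both transgenic groups, and Csf1r rose over NHD13 (log2FC 1.71, adjusted p = 0.00927, edgeR's test). Cd14, a gene of mature monocytes, had a mean CPM of 0.253 in the NHD13/MSI2-labelled libraries. The stem cell genes summed to 772 to 1242 CPM in control, 287 and 865 CPM in NHD13 and 44.0 to 86.0 CPM in the NHD13/MSI2-labelled libraries, where 7 of 8 fell over control and 6 of 8 over NHD13 (3 without any 1 control, NHD13 replicate 1, or NHD13/MSI2 replicate 1 or 2). Of all genes tested, 6.55% were called lower over control and 2.58% over NHD13 in the labelled group. Between control and the labelled group the monocyte sum was higher and the stem cell sum lower, beside the rise of Mpo, Plac8 and Ly86. Within the labelled group replicate 4 had the highest stem cell sum (86.0 CPM) and a monocyte sum of 8258 CPM, while its Plac8 and Ly86 were the lowest. The part of these sums in the result was not tested.

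The genes of the gate were present. Kit was at 1775 to 2254 CPM in control, 1121 and 1931 CPM in NHD13 and 908 to 1402 CPM in the NHD13/MSI2-labelled libraries, and Ly6a, which encodes Sca1, at 79.3 to 89.8, 48.3 and 69.0, and 98.6 to 375 CPM. Neither passed the threshold. Cd34 fell by 1.07 and Flt3 by 2.01 on the log2 scale over control in the NHD13/MSI2-labelled libraries. In NHD13 over control Cd34 fell by 1.80 (adjusted p = 0.00572, edgeR's test), and Flt3 was not called (log2FC -1.09). Over NHD13, Cd34 had a log2FC of 0.73 in the labelled libraries and was not called (adjusted p = 0.0882, same test). Summed markers of eosinophils (0 to 8.87 CPM), T cells (0.664 to 11.0 CPM) and mast cells and basophils (6.29 to 75.4 CPM) were low in all libraries, those of B cells were at 46.4 to 57.9 CPM in control and at 262 to 447 CPM in the NHD13/MSI2-labelled libraries, and those of erythroid cells were at 87.6 to 199 CPM in control and at most 23.9 CPM elsewhere. Megakaryocyte markers summed to 15.2 to 702 CPM and those of plasmacytoid dendritic cells to 259 to 946 CPM, where Tcf4 (212 to 354 CPM) and Irf8 (27.5 to 618 CPM), which is also among the factors above, made up most of the sum and Siglech, the more specific marker, was at 0 to 1.23 CPM. The part of these cells in the results was not tested.

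**Figure D4:**
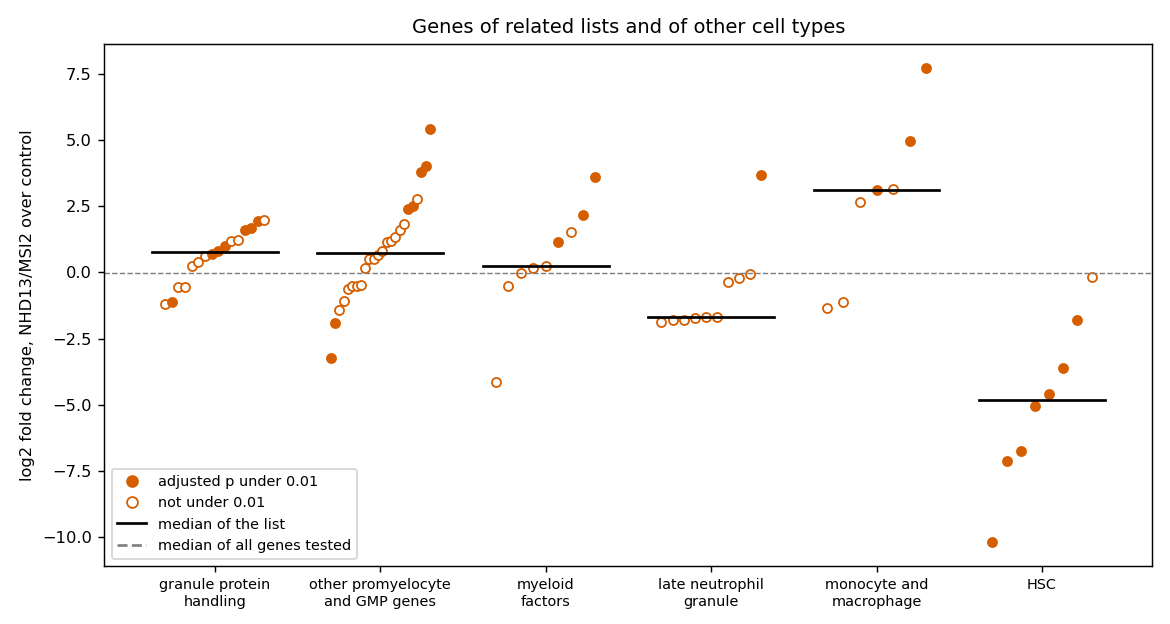
Log2FC over control in the NHD13/MSI2-labelled libraries (y axis) for each tested gene of 6 lists, filled where the adjusted p of edgeR's test is under 0.01, with the median of each list as a line and the median of all genes tested as a dashed line. Monocyte genes lie mostly above 0 and stem cell genes below, and late neutrophil granule genes have 9 of 10 estimates below 0, where the lowest stem cell values rest on counts near 0 and depend on the prior count.

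The genes were not alike in pattern over the 9 libraries. The distance of each gene from the mean profile of the 8, as the root mean square difference of Z-scores of log2 CPM, was 0.396 for Ly6c2, 0.449 for Prtn3 and 0.451 for Ctsg, and 0.743 for Ly86 and 0.899 for Elane at the far end. Among 10964 other genes with a mean of at least 50 counts, the profiles nearest to that mean were those of Prdx5 (0.332), Calr (0.337), Hpcal1, Anapc16 and Atp6v0c (0.344 each). Calr encodes calreticulin, a chaperone that binds the precursor of myeloperoxidase in the endoplasmic reticulum. Calr was at 712, 799.6 and 646 CPM in control, 1026 and 966 CPM in NHD13 and 1793, 2137, 1772 and 832 CPM in replicates 1 to 4 labelled NHD13/MSI2, where replicate 4 again stood below the rest of its group. Its log2FC over control was 1.18 (SE 0.289, adjusted p = 0.0178, edgeR's test).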

How the data were processed

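RNA was measured in sorted LSKs of 9 libraries. The authors deposited whole-number read counts per gene symbol, not normalized; the submitters' processing notes name STAR, HTSeq, DESeq and the build mm9. Of 24073 rows, 11942 names after the March genes were moved down by 2 rows and 13 rows (0.0253% to 0.0323% of reads) were left unnamed. Computed here, in R 4.3.3, were TMM factors, filterByExpr by group and edgeR 4.0.16 quasi-likelihood tests over all 9 libraries, with adjusted p under 0.01 as threshold. Genes were named by fixed rules: the 8 genes, up to 4 called genes each way per list with a mean of at least 50 counts, named factors and handling genes, and the 5 nearest profiles. Pdia3, Hspa5, Cd180, Epx, Lpo, Ngp, Calr, Actb and Cd14 were chosen with their values known. The genes and lists were chosen with earlier results of these data known. Sequences and positions are from RefSeq GRCm38.p6 and GENCODE M21. Alternatives included DESeq2 1.42.0, RLE factors, other filters, names as deposited and libraries left out. Both tests were tried on simulated counts for the NHD13/MSI2-labelled libraries over NHD13, with 50 genes changed at each size. EdgeR called 0 of 50 at 2-fold and 23 of 50 at 4-fold, and DESeq2 called 9 and 35. Among the genes left unchanged, edgeR called 5 and DESeq2 30. A change of about 2-fold was thus mostly missed in this comparison. Depth was 19242153 to 23013493 counts per library.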

Additional observations from a re-analysis of the deposited data

Results flagged for a closer look

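In 6 of the 53 quantities examined within the libraries labelled NHD13/MSI2, replicate 4 lay far from the other 3, with a gap, as a share of the group's whole range, above Dixon's 95% critical value. Chance flags about 1 in 20 independent groups of this kind. Here the quantities share genes and libraries, and some genes, such as Actb, were chosen with their values known. That rate therefore cannot be set against the 6. The gap was 0.982 of the range for Actb (51587 against at most 11646 CPM), 0.933 for Msi2 (241 against at most 88.0 CPM) and 0.990 for Canx, which encodes calnexin (8083 against at most 1754 CPM). It was 0.852 for Srgn (312 against at least 592 CPM), 0.913 for Mpo per Elane count (173 against at most 91.9) and 0.834 for the summed CPM of the granule protease and peroxidase handling list (13993 against at most 9839 CPM). That sum was carried by Canx: without it, a sum chosen after seeing the data, replicate 4 was at 5909.9 CPM, the lowest of the group, beside 7317 to 8085 CPM. The cause of the other gaps was not tested.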

How the results depend on the processing

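The calls over NHD13 in the NHD13/MSI2-labelled libraries depended on the processing. With the names as deposited, the rows called Mpo, Ms4a3, Plac8 and Prtn3 hold the counts of other genes. Values under that setting therefore say nothing about how these genes depend on the processing. Of the 8 genes, 0 were called in the reported fit and 1 by DESeq2, without a filter on low counts and at an adjusted p under 0.05 (Mpo in each). Mpo ranged from an adjusted p of 7.33e-07 (DESeq2) to 0.0758 (without NHD13 replicate 2), and was 0.523 with the names as deposited. Leaving out each library gave 0 to 2, with 2 (Mpo and Prtn3) without NHD13/MSI2 replicate 4. Over control, 3 were called in the reported fit, 1 with the names as deposited and 1 (Ly86) with only the libraries that have Y-linked counts, and 2 to 4 with each library left out. In NHD13 over control, 1 was called, 2 by DESeq2 (Ly86 and Plac8), 0 with only the libraries that have Y-linked counts, where Ly86 kept a log2 fold change of 5.78 (adjusted p = 0.0369, edgeR), and 1 with each library left out. Counts over all genes were 423 (30 to 1286 over the alternatives), 1474 (95 to 2746) and 138 (7 to 594) in the 3 comparisons. Scaling by library totals alone moved the median of all genes by -0.19 and -0.21 in the comparisons of the NHD13/MSI2-labelled libraries. That scaling leaves out the TMM factors. These were 0.969, 0.974, 0.971 and 0.785 in replicates 1 to 4 labelled NHD13/MSI2 and 1.05 to 1.09 in the other libraries. Why the factors and the calls differed was not tested.

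The sign of some estimates turned. Over NHD13, Ctsg was -0.0423 by library totals. It was -0.081 to -0.0101 with NHD13 replicate 2 (-0.064), NHD13/MSI2 replicate 2 or NHD13/MSI2 replicate 3 left out (0.42 at the highest). The row called Mpo as deposited, which holds another gene's counts, gave -0.405. Over control, Ms4a3 was -0.0212 by library totals and -0.138 with only the libraries that have Y-linked counts. It was -0.209 and -0.0666 without NHD13/MSI2 replicate 2 and control replicate 3 (0.45 at the highest). The rows called Mpo and Prtn3 as deposited, which hold other genes' counts, gave -0.0789 and -0.722. In NHD13 over control, Ctsg was -0.0056 with only the libraries that have Y-linked counts, Prtn3 was 0.0638 and 0.0841 without control replicate 2 and NHD13 replicate 1 (-0.165 at the lowest), Ly6c2 -0.546 without NHD13 replicate 1 (1.41 at the highest) and Ms4a3 0.122 without NHD13 replicate 2 (-0.852 at the lowest). With each library left out, the log2 fold change over NHD13 was 0.012 to 1.23 for Elane, 0.0469 to 1.02 for Ms4a3 and 0.259 to 2.21 for Ly6c2.

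The correlation of deviations was -0.072 to 0.19 for same-numbered libraries and -0.19 to 0.15 for differently numbered ones. The deviations of the 2 NHD13 libraries mirror each other, so these values do not settle whether the replicate numbers pair the libraries. With the replicate number as a block, 1 of the 8 genes was called over NHD13 (Prtn3, adjusted p = 0.00265, edgeR), 4 over control in the NHD13/MSI2-labelled libraries and 1 in NHD13 over control.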
